A study of Mus musculus with 7 samples.

Results

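Sheared NuGEN libraries of area CA2 of the mouse hippocampus were compared with unsheared NuGEN libraries of the same area. The members were 5 of the 7 libraries in the series, 3 sheared and 2 unsheared, and they were taken by their column labels and by the methods, which say which cDNA was fragmented by ultrasound. All came from hippocampal CA2 cells of male Amigo2-GFP C57BL/6 mice aged 6 weeks, collected by laser capture microdissection, in which a laser lifts chosen tissue out of a frozen section. The EGFP transgene follows the promoter of Amigo2, a CA2 marker, so the captured area was found by fluorescence. The sheared libraries were made from QIAGEN RNA with 16, 18 and 20 PCR cycles, and the table names another mouse for each, so cycles and mouse changed together. The unsheared libraries were made with 20 cycles from QIAGEN RNA and from PicoPure RNA, 1 library each. The column labels of the sheared libraries also hold CB, which the paper uses for cell body. Those of the unsheared libraries name no compartment, and the part of this was not tested. The remaining 2 libraries, made unsheared with the Clontech kit from the same RNA kits, share a gene table with the unsheared NuGEN libraries. For that reason they are quoted only beside genes, lists and groups of genes by base composition.

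The NuGEN kit copies total RNA into cDNA with random and poly-dT primers and removes ribosomal RNA late, before the final amplification, so RNAs without a poly-A tail enter the library. Shearing breaks the cDNA into shorter fragments before adapters are added. Area CA2 is a small pyramidal cell field between CA1 and CA3, known for Rgs14, a regulator of G protein signalling that limits synaptic plasticity there.

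The sheared libraries held 33239387, 34320087 and 39256039 reads on genes, against 4548002 and 5194138 reads in the unsheared libraries. The 2 tables listed 22840 symbols for the sheared and 41567 for the unsheared libraries, and 20772 symbols occurred once in both. These shared symbols took 93.4 to 93.8% of reads in sheared libraries and 86.0 and 86.4% in unsheared libraries. Values below are recovered reads scaled jointly over the 5 libraries, in RPM (reads per 1000000 reads on the joint scale). One read was worth 0.0263 to 0.0310 RPM in sheared libraries and 0.273 and 0.232 RPM in unsheared libraries. The sheared libraries came from a separate cohort, with other depth, other gene models and, in part, fewer cycles, so these cannot be told apart from shearing. The labels do not say which animals the unsheared libraries came from, and p-values measure the spread between these libraries, which may be technical.

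Libraries were less alike between the groups than within them, by a margin that depended on the genes. Across the 11373 genes tested, Pearson's r of log2 values was 0.983 to 0.985 between sheared libraries, 0.922 between the unsheared libraries, and 0.851 to 0.858 between a sheared and an unsheared library. Over the 7853 genes without counting doubts, which are defined with the tests, r was 0.909 to 0.916 between the groups. It was 0.983 to 0.985 between sheared libraries and 0.926 between the unsheared libraries. Most of the gap between the groups and the unsheared pair was thus not present among these genes. The doubt about exons was read from the unsheared libraries alone, so the narrower gap may in part follow from how the genes were picked. All r values are correlations across genes, which are not independent replicates. With all libraries thinned to 3909267 reads, the r values over all genes tested were 0.971 to 0.973 between sheared libraries, 0.912 between unsheared libraries and 0.833 to 0.840 between the groups.

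Under limma with Benjamini-Hochberg adjustment, 2093 genes were higher and 1898 genes lower in sheared libraries at an adjusted p under 0.05. These are 18.4% and 16.7% of the genes tested, and 2288 genes, or 20.1%, differed by more than 2-fold. Scaling by library totals in place of median ratios moved the median difference to 0.14 on the log2 scale, and higher genes then made up 63.7% of the calls, against 52.4%. Reads of several symbols could not be compared directly, because a near-identical gene copy, a neighbour listed in 1 table only, an overlap with another gene or a count outside exons could place reads differently in each table. A set of 7853 tested genes without these doubts gave 18.7% higher and 13.0% lower, with 14.1% differing by more than 2-fold. These genes were picked out after the data had been seen. The doubt about exons was read from the unsheared libraries alone. Of the 940 tested genes under that doubt 44.4% were lower and 2.8% higher. A part of the smaller share of lower genes thus follows from how the set was picked. Leaving out the sheared library of 16, 18 or 20 cycles gave 1308, 1327 and 1289 higher genes and 1293, 1236 and 1239 lower genes. With PCR cycles as a term in the fit 971 genes were higher and 966 lower, and with the sheared library of 20 cycles alone, at the cycle number of the unsheared ones, 505 were higher and 609 lower.

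Of the CA2 markers, Rgs14 and Amigo2 did not pass the test, nor did the neuronal gene Elavl2. Rgs14 had 823, 740 and 822 RPM in sheared libraries, against 761 and 637 RPM in unsheared libraries, so the groups overlapped (log2 difference 0.19, SE 0.10, limma adjusted p = 0.178). Amigo2, an adhesion protein of CA2 neurons, had 383, 352 and 400 RPM in sheared and 370 and 370 RPM in unsheared libraries (log2 difference 0.03, SE 0.09, limma adjusted p = 0.829). Elavl2, a neuronal gene for an RNA-binding protein, had 264, 253 and 272 RPM in sheared and 264 and 269 RPM in unsheared libraries (log2 difference -0.02, SE 0.09, limma adjusted p = 0.885). Each group's values overlapped the other's for all 3 genes. In bulk tissue, fewer cells of a type and less RNA per cell cannot be told apart.

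Of 15 CA2 markers, 13 were listed in both tables and all 13 were tested. Of these, 2 were higher, 5 were lower and 6 were not called, with a median log2 difference of -0.07, beside 18.4% higher and 16.7% lower over all genes tested. Necab2, a calcium-binding protein gene, had 385, 354 and 404 RPM in sheared libraries, against 246 and 284 RPM in unsheared libraries (log2 difference 0.52, SE 0.10, limma adjusted p = 0.00502). Map3k15, a kinase gene, had 60.4, 50.6 and 55.2 RPM in sheared and 27.8 and 31.8 RPM in unsheared libraries (log2 difference 0.88). Both were higher in every sheared library than in either unsheared library. Acan, the aggrecan of perineuronal nets, fell to 62.4, 39.0 and 53.9 RPM in sheared libraries, against 97.6 and 128 RPM in unsheared libraries (log2 difference -1.13, SE 0.21, limma adjusted p = 0.0038). Avpr1b, a vasopressin receptor that marks CA2, had 16.7, 12.7 and 14.3 RPM in sheared and 26.7 and 33.2 RPM in unsheared libraries (log2 difference -1.01). Ptpn5, Adora1 and Sostdc1 were lower by log2 differences of -0.46, -0.28 and -0.55, and the calls of Ptpn5 and Adora1 were lost with cycles in the fit. The summed level of the 13 markers was 2737 to 2989 RPM in sheared libraries and 2917 and 3167 RPM in unsheared libraries. Pcp4 and Fgf2 were not compared.

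**Figure D1:**
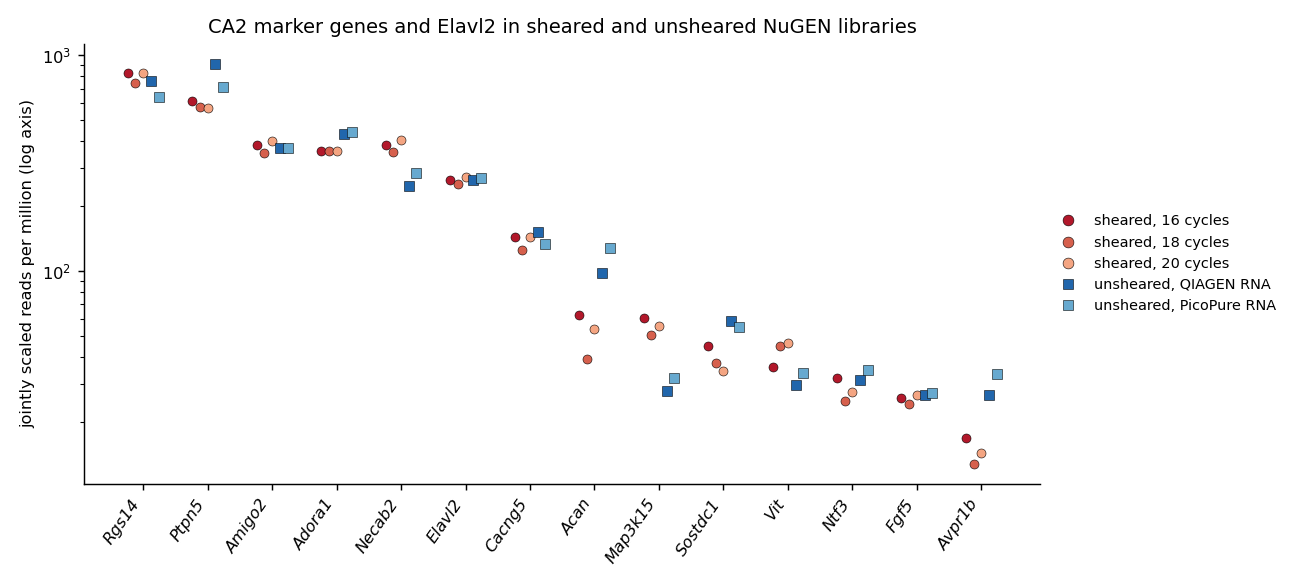
Jointly scaled RPM on a log axis for 13 CA2 marker genes and Elavl2, with sheared libraries as circles and unsheared libraries as squares. Rgs14, Amigo2 and Elavl2 overlap between the groups, and Acan and Avpr1b lie lower in sheared libraries.

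Markers of the neighbouring hippocampal fields were called in part. Their counts stand beside 18.4% higher and 16.7% lower over all genes tested. Counts near these shares are no result about the markers. Of 7 CA3 markers tested 1 was higher and 3 were lower, with a median log2 difference of 0.24, and of the 5 without counting doubts 1 was higher and 1 lower. Grik4, a kainate receptor subunit of CA3 neurons, had 131, 147 and 155 RPM in sheared libraries, against 309 and 388 RPM in unsheared libraries (log2 difference -1.26). Cpne4, with the highest level of the CA3 list, had 639, 642 and 642 RPM in sheared and 496 and 591 RPM in unsheared libraries and was not called. Of 8 CA1 markers 2 were lower and 0 higher, and of the 5 without counting doubts 1 was lower and 0 higher. Of 3 dentate granule cell markers tested 1 was lower and 0 higher. The summed level of the 7 CA3 markers was 839 to 887 RPM in sheared libraries and 898 and 1102 RPM in unsheared libraries.

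Markers of interneurons and glia are given beside 18.4% higher and 16.7% lower over all genes tested, and counts near these shares are no result about the markers. Of 10 interneuron markers tested, 2 were higher: Gad1, which makes GABA, had 147, 127 and 139 RPM in sheared and 89.4 and 77.6 RPM in unsheared libraries (log2 difference 0.72, limma adjusted p = 0.00233), and Gad2 differed by 0.55. With the 20-cycle sheared library alone neither was called. Astrocyte markers gave 2 higher and 0 lower of 12. Slc1a2, the main glial glutamate transporter, had 980, 1001 and 885 RPM in sheared libraries and 982 and 871 RPM in unsheared libraries, which overlap. Oligodendrocyte markers gave 3 higher and 0 lower of 10, including Mal, a myelin proteolipid gene, with 29.6, 45.6 and 36.8 RPM in sheared and 14.2 and 12.5 RPM in unsheared libraries. The summed level of the 10 oligodendrocyte markers was 794 to 1075 RPM in sheared and 718 to 1154 RPM in unsheared libraries, which overlap. Microglial markers gave 1 higher and 1 lower of 10. Of 11 endothelial and mural markers tested 0 were higher and 0 lower, with a median log2 difference of -0.04. The 12 listed summed to 93.8 to 125 RPM in sheared libraries and to 126 and 155 RPM in unsheared libraries. Ttr, the defining choroid plexus gene, stood at 81.2 RPM in the sheared library of 18 cycles, against 0.372 and 2.71 RPM in the other sheared libraries and 3.54 and 5.34 RPM in the unsheared libraries. The part of these markers in the other results was not tested.

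Lists of neuronal and synaptic genes held more lower than higher genes in sheared libraries. Over all genes tested 16.7% were lower and 18.4% higher. Of 8 excitatory neuron markers, 6 were lower and 0 higher, with a median log2 difference of -0.64, and of the 7 without counting doubts 5 were lower, with a median of -0.54. Of 20 glutamate receptor genes tested, 11 were lower and 1 was higher, with a median of -0.73. The 9 receptor genes without counting doubts gave 5 lower and 0 higher, with a median of -0.55. Of 14 genes of synaptic adhesion and scaffolds 11 were lower and 2 higher, with a median of -0.94, and the 9 without counting doubts gave 6 lower and 2 higher, with a median of -0.53. Grin1, Grin2a and Grin2b stand in the first and the second of these lists. The median over all genes tested was 0.02. Grin2b, the GluN2B subunit of the NMDA receptor, had 604, 585 and 523 RPM in sheared libraries, against 1799 and 2903 RPM in unsheared libraries (0.249 times the unsheared level in the fit, limma adjusted p = 7.29e-05). The Clontech libraries, in the same table as the unsheared ones, gave Grin2b 2635 and 3423 RPM. The 8 excitatory neuron markers summed to 8963 to 9269 RPM in sheared and 15025 and 15395 RPM in unsheared NuGEN libraries. Clontech libraries held 10850 and 11350 RPM of them. The 22 receptor genes in both tables summed to 4809 to 5054, 7485 and 10082, and 8610 and 11766 RPM in the same order. The 14 adhesion and scaffold genes summed to 5243 to 5635, 9115 and 10995, and 6474 and 10428 RPM. Grin2a had 431, 389 and 368 RPM in sheared and 940 and 1290 RPM in unsheared libraries, and Grin1 had 775, 724 and 731 RPM in sheared and 1188 and 1280 RPM in unsheared libraries. Gria2, the AMPA receptor subunit that controls calcium entry, was the 1 receptor gene that was higher, with 824, 868 and 850 RPM in sheared libraries and 534 and 559 RPM in unsheared libraries (log2 difference 0.63, limma adjusted p = 0.000474). Gria2 was not called with the 20-cycle sheared library alone.

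Nrxn3, a presynaptic adhesion receptor, had 535, 516 and 471 RPM in sheared libraries, against 1206 and 2177 RPM in unsheared libraries. Nlgn1, its postsynaptic partner, had 215, 219 and 215 RPM in sheared and 548 and 914 RPM in unsheared libraries. For both genes every sheared library lay under every unsheared library. The unsheared libraries gave these genes 0.784 and 0.355 exon counts for each gene read, so a part of their reads lay outside listed exons. Of the long nuclear or imprinted noncoding RNAs 4 of 6 were lower and 0 higher, including Malat1, a nuclear speckle RNA, with 1443, 1879 and 1792 RPM in sheared and 3338 and 5244 RPM in unsheared libraries. Of 14 immediate early genes 7 were lower and 0 higher, beside 16.7% lower over all genes tested, and 5 of the 10 without counting doubts were lower. Among the 7 was Egr1, a transcription factor of neuronal activity, with 193, 170 and 185 RPM in sheared libraries and 392 and 389 RPM in unsheared libraries. The 15 immediate early genes listed summed to 487 to 611 RPM in sheared and 1019 and 1117 RPM in unsheared NuGEN libraries. In the unsheared Clontech libraries they summed to 390 and 415 RPM. The cohorts differed in animals, and the part of that in these genes was not tested.

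**Figure D2:**
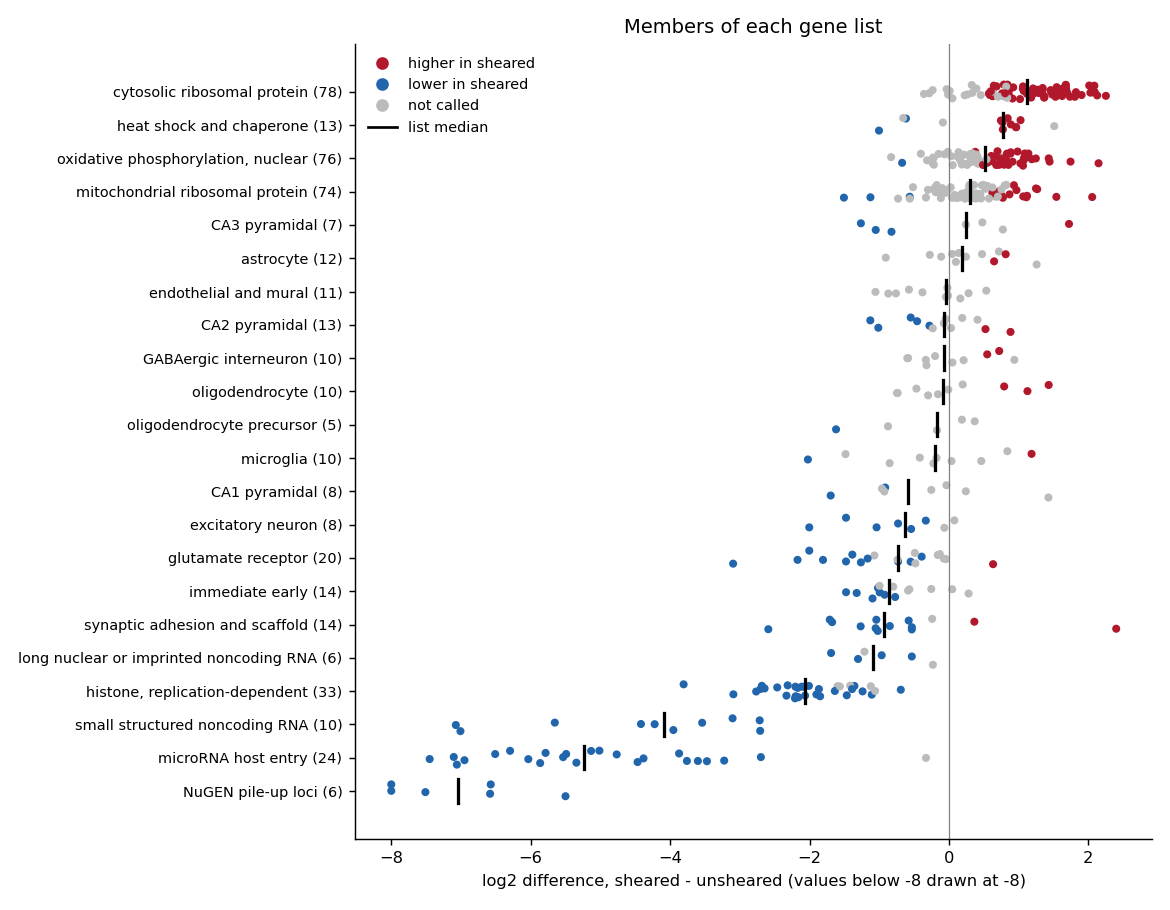
Log2 difference of sheared minus unsheared libraries for each tested member of the gene lists, with the number of members in brackets, red for higher, blue for lower and grey for not called, and a black bar at each list's median, and values under -8 drawn at -8. Cytosolic ribosomal protein genes lie to the right and short or pile-up entries to the left.

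Among genes of the ribosome and of oxidative phosphorylation more were higher than lower. Of 78 cytosolic ribosomal protein genes tested, 58 were higher and 0 lower, with a median log2 difference of 1.11, beside 18.4% higher over all genes tested. Only 11 of the 78 were without counting doubts, of which 8 were higher, with a median of 0.86. Of the 78, 56 have a near-identical copy elsewhere in the genome, with a median of 1.19, and those without one had a median of 1.00. Rps27a, which encodes a ribosomal protein joined to ubiquitin, had 127, 108 and 127 RPM in sheared and 29.2 and 21.1 RPM in unsheared libraries (log2 difference 2.25, SE 0.17, limma adjusted p = 3.89e-05). Rpl9, counted without doubts, had 156, 154 and 174 RPM in sheared libraries, against 40.6 and 33.0 RPM in unsheared libraries (log2 difference 2.13). For oxidative phosphorylation, 76 nuclear genes were tested and gave 37 higher and 1 lower, with a median of 0.51, and 27 of the 54 without counting doubts were higher. Atp5b, the catalytic beta subunit of ATP synthase, had 1168, 1183 and 1187 RPM in sheared and 779 and 706 RPM in unsheared libraries (log2 difference 0.67, limma adjusted p = 0.000394), and its call was lost with the 20-cycle sheared library alone. Ndufb5, a subunit of complex I, had 88.0, 86.7 and 80.3 RPM in sheared and 17.7 and 20.0 RPM in unsheared libraries (log2 difference 2.15). Ndufb3, another complex I subunit, was the 1 gene of the list that was lower, with 89.8, 82.5 and 86.2 RPM in sheared libraries and 147 and 129 RPM in unsheared libraries.

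Of 13 heat shock and chaperone genes 8 were higher and 2 lower, with a median log2 difference of 0.77, beside 18.4% higher and 16.7% lower over all genes tested. The 4 without counting doubts gave 2 higher and 1 lower, with a median of 0.33, and the 5 with a near-identical copy had a median of 0.96. Hspa8, the constitutive Hsc70 chaperone, had 2528, 2440 and 2587 RPM in sheared and 1647 and 1317 RPM in unsheared libraries (log2 difference 0.77, limma adjusted p = 0.000623). Hsp90aa1 had 1855, 1814 and 1873 RPM in sheared and 990 and 905 RPM in unsheared libraries. Hsp90ab1 had 2302, 2030 and 2218 RPM in sheared and 2237 and 2395 RPM in unsheared libraries, and the groups overlapped.

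The 2 lowest log2 differences, at Filip1l and Cmss1, were at loci where unsheared NuGEN libraries held many reads and few exon counts. Of 7 such loci, chosen with earlier results of these data known, 6 were in both tables. All 6 were lower in sheared libraries, with log2 differences of -5.50 to -14.37, beside 16.7% lower over all genes tested. Since loci of this kind are those with many unsheared reads, the choice favoured this direction, and the count is a description. Filip1l, on chromosome 16 at positions 57353093 to 57573126 of mm10, had 0.496, 1.14 and 0.0525 RPM in sheared libraries, against 30902 and 13511 RPM in unsheared libraries (log2 difference -14.37, SE 0.45, limma adjusted p = 3.46e-07). The Clontech libraries held 4.38 and 5.50 RPM, and the unsheared NuGEN libraries had 6 and 3 exon counts for 113371 and 58179 gene reads. Cmss1, which encloses Filip1l on the same chromosome, had 8.75, 8.93 and 5.36 RPM in sheared and 33776 and 27487 RPM in unsheared libraries, and 223 and 233 RPM in Clontech libraries. Lpin2, a phosphatidate phosphatase gene, had 61.9, 59.5 and 61.0 RPM in sheared and 2866 and 2688 RPM in unsheared libraries. Together these loci took 122 to 131 RPM in sheared libraries and 74352 and 48733 RPM in unsheared libraries.

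Small structured RNAs were listed 16 times and 10 passed the filter. All 10 were lower, with a median log2 difference of -4.09, beside 16.7% lower over all genes tested. A gene could pass through its unsheared level alone, as Snord88a did with 0, 0 and 0 RPM in sheared and 69.5 and 64.3 RPM in unsheared libraries, so the count describes the tested members only. In all, 9 of the 10 were lower in both Clontech libraries than in either unsheared NuGEN library. Rpph1, the RNA part of ribonuclease P, on chromosome 14 at positions 50807449 to 50807767, had 241, 248 and 230 RPM in sheared libraries, against 3730 and 5379 RPM in unsheared libraries (log2 difference -4.22, SE 0.14, limma adjusted p = 3.88e-07). The Clontech libraries gave it 152 and 271 RPM. Rmrp, the RNA of mitochondrial RNA processing ribonuclease, had 130, 147 and 107 RPM in sheared and 1453 and 2684 RPM in unsheared libraries. Scarna2, a small Cajal body RNA, had 4.71, 6.71 and 3.81 RPM in sheared and 331 and 227 RPM in unsheared libraries.

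Replication-dependent histone genes, whose mRNAs end in a stem-loop and not in a poly-A tail, also fell. Of 33 tested, 28 were lower and 0 higher, with a median log2 difference of -2.06, against 16.7% lower among all genes tested. The list has 64 members, and a gene could pass the filter through its unsheared level alone, so the count describes the tested members alone. Hist1h4d had 49.8, 50.6 and 47.2 RPM in sheared libraries, against 245 and 133 RPM in unsheared libraries, and 1.94 and 5.70 RPM in Clontech libraries. In 32 of the 33 genes both Clontech libraries were below both unsheared NuGEN libraries. A near-identical copy was found for 27 of them.

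miRNA gene entries are short hairpins, of 65 to 120 bases in the annotation for those tested. Of 270 listed, 203 had 0 reads in all sheared libraries and 204 had 0 reads in both unsheared libraries, and 24 were tested. Of the 24, 23 were lower and 0 higher, beside 16.7% lower over all genes tested. Among the 24, 11 had 0 reads in all 3 sheared libraries. These 11 passed the filter through their unsheared level, so the counts are a description. The mature forms of entries that stand out are given with the seed, bases 2 to 8, in capitals, because several share it. Reads were counted on the gene entries, so no value here is a level of a mature form. miR-9-5p is made from Mir9-1, Mir9-2 and Mir9-3, and miR-99a-5p and miR-100-5p share 1 seed.
mmu-miR-9-5p (Mir9-3): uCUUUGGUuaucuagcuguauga
mmu-miR-137-3p (Mir137): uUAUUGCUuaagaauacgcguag
mmu-miR-99a-5p (Mir99a): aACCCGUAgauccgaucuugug
mmu-miR-100-5p (Mir100): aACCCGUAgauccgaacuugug

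These sequences are from RefSeq on GRCm38, which matched 22 of the 24 tested entries, and their seeds are the capitals. Mir9-3, on chromosome 7 at 79505264 to 79505353, had 0.0620, 0 and 0 RPM in sheared libraries, against 80.7 and 62.5 RPM in unsheared libraries, and 31.1 and 45.9 RPM in Clontech libraries. Mir9-2 had 1.74, 1.05 and 1.60 RPM in sheared and 97.3 and 117 RPM in unsheared libraries. Mir137, on chromosome 3, had 0.155, 0 and 0 RPM in sheared and 61.9 and 146 RPM in unsheared libraries, with 38.9 and 158 RPM in Clontech libraries. Mir99a had 0, 0 and 0 RPM in sheared and 45.5 and 96.1 RPM in unsheared libraries, and Mir100, with the same seed, had 0, 0 and 0 RPM in sheared and 25.1 and 19.3 RPM in unsheared libraries. All sheared values of these miRNA entries lay below the unsheared ones. For 21 of the 24 entries both Clontech libraries were above all sheared libraries. Some tested entries have a same-strand neighbour within 2000 bases that only the sheared table lists. Adding such neighbours' reads can only raise the sheared side. It moved the log2 difference of the group means from -5.34 to 0.64 at Mir879 and from -3.58 to 0.06 at Mir1951. At Mir9-2 it moved from -5.77 to -4.14, and at Mir99a from -7.16 to -7.11. The parts of the gene models and of shearing at the miRNA entries were not tested.

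**Figure D3:**
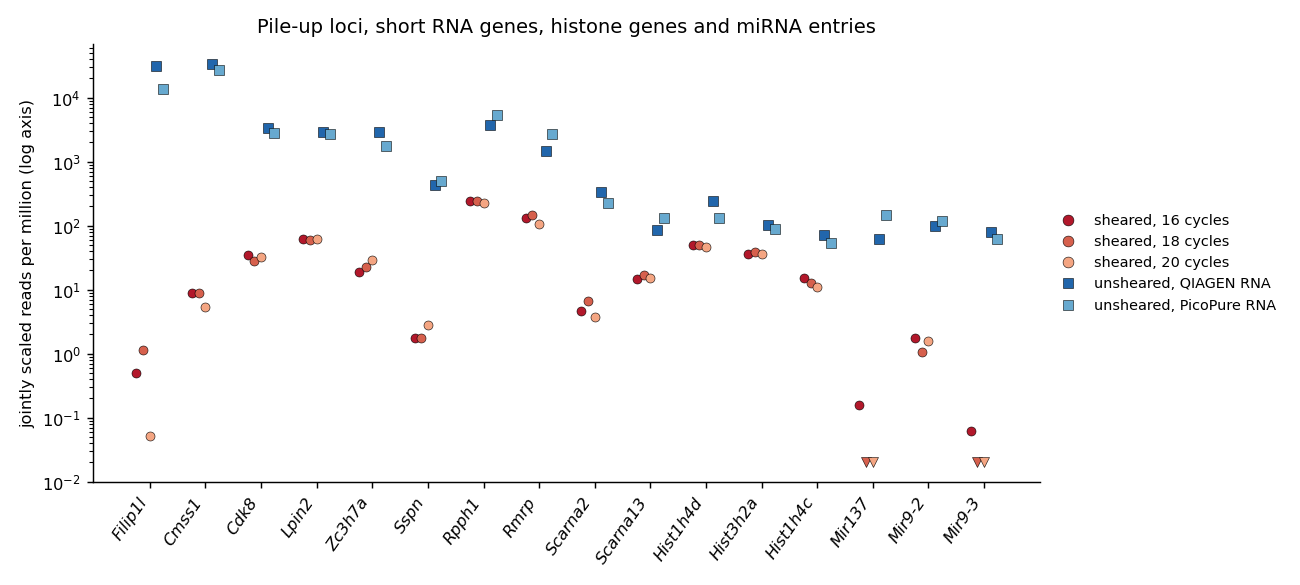
Jointly scaled RPM, on a log axis, at pile-up loci, short RNA genes, histone genes and miRNA entries, with sheared libraries as circles and unsheared libraries as squares. Triangles at the bottom mark values under 0.02 RPM, and every circle lies below the squares of its gene.

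Symbols beside a gene listed only in the sheared table were often lower. Of 433 tested genes with a same-strand neighbour within 2000 bases that only the sheared table lists, 175 were lower, or 40.4%, and 83 were higher, or 19.2%. These shares stand beside 16.7% lower and 18.4% higher over all genes tested. Of the 433, 100 were lower by more than a log2 difference of 2. Since neighbours exist in the sheared table alone, adding their reads can only raise the sheared side. Over all 433 genes the median log2 difference of the group means was -0.0033 with the neighbours added, against -0.35 for the symbol alone. With them 316 genes were within 2-fold, against 248, 70 were over 2-fold lower, against 152, and 47 were over 2-fold higher, against 33. The 100 lowest were chosen for being low, and what follows for them is a description. With the neighbours' reads added, 56 of these 100 came within 2-fold, and the median log2 difference over the 100 was -0.49, against -4.37 for the symbol alone. Gpx2-ps1, a pseudogene, had 0, 0 and 0.158 RPM in sheared libraries, against 1512 and 1213 RPM in unsheared libraries, and its neighbour Pgm2l1, a phosphoglucomutase gene listed only in the sheared table, had 1679, 1606 and 1639 RPM there. Igsf5 had 0, 0 and 0.158 RPM in sheared and 842 and 578 RPM in unsheared libraries. Pcp4, a CA2 marker of the same chromosome region that starts at position 96467606 of chromosome 16, had 450, 390 and 398 RPM in sheared libraries and is not listed with the unsheared ones. Prnd had 0.124, 0.0599 and 0.0788 RPM in sheared libraries and 403 and 459 RPM in unsheared libraries, and Prnp, the prion protein gene upstream of it, had 590, 660 and 605 RPM in sheared libraries. Igsf5 and Prnd are not among the 433, and Pcp4 and Prnp were paired with them after their values were seen. The Clontech libraries, with the unsheared gene models, also had reads under these symbols, 1210 and 1170 RPM for Gpx2-ps1.

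**Figure D4:**
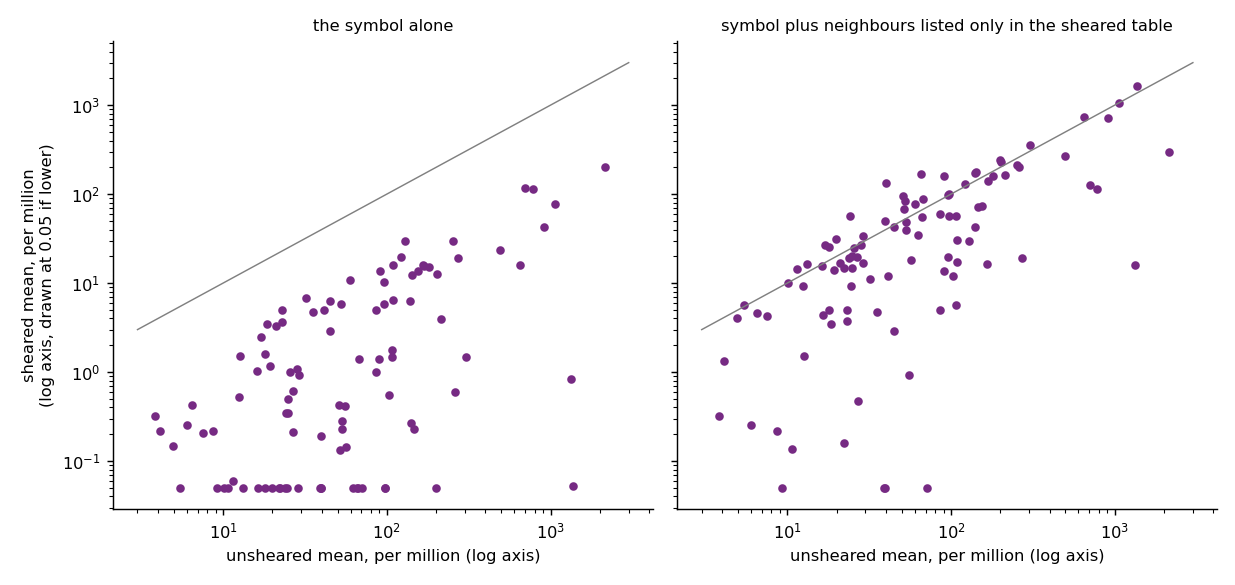
Mean RPM in sheared libraries, vertical, against the mean in unsheared libraries, horizontal, both on log axes, for the 100 symbols with a neighbour listed only in the sheared table that were chosen for a log2 difference under -2. The left panel uses the symbol alone, the right panel adds the neighbours, which can only move points up, and 56 of the 100 then lie within 2-fold of equal values, the grey line.

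Genes with near-identical copies were more often higher than lower. Of 794 tested genes with a near-identical copy, 318 were higher, or 40.1%, and 89 were lower, or 11.2%, with a median log2 difference of 0.43. These shares stand beside 18.4% higher and 16.7% lower over all genes tested. Eno1b, which shares 92.2% of its transcript with copies such as the glycolytic enzyme Eno1, had 578, 658 and 700 RPM in sheared and 11.2 and 6.73 RPM in unsheared libraries (log2 difference 6.13, SE 0.19, limma adjusted p = 3.46e-07). Pgam1, another glycolytic enzyme with a copy named Pgam1-ps2, had 607, 639 and 664 RPM in sheared libraries, against 116 and 99.4 RPM in unsheared libraries. Mrap, without such a copy and an accessory protein of the melanocortin receptor, had 92.0, 113 and 93.8 RPM in sheared and 0 and 0 RPM in unsheared libraries, at least 264-fold higher against a floor of 3 reads over both unsheared libraries. The Clontech libraries had 0 and 0.200 RPM. Among the 12 processed pseudogenes tested, 8 were higher and 4 were lower, beside 18.4% higher and 16.7% lower over all genes tested.

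Base composition ordered the genes without counting doubts. The median log2 difference was 0.49 for 448 genes with under 40% GC, 0.05 for 1624 genes between 48 and 52% GC and -0.42 for 375 genes with 60% GC or more, and it fell in every step between. Among genes under 40% GC 184 were higher and 27 lower, and among genes of 60% or more 16 were higher and 112 lower. Over all genes without counting doubts 18.7% were higher and 13.0% lower. Genes with under 40% GC took 5.55 to 5.64% of these reads in sheared libraries and 4.06 and 3.80% in unsheared libraries. Genes of 60% or more took 3.67 to 3.79% of reads in sheared libraries and 5.74 and 5.68% in unsheared libraries, so neither bin overlapped between the groups. The Clontech libraries, also unsheared, gave 4.82 and 4.93% under 40% GC and 3.31 and 3.03% at 60% or more. The cause of the order by GC content was not tested. Spearman's rho of the log2 difference with GC content was -0.33 over 7853 genes that share the same 5 libraries. Within the groups, rho with GC was 0.01 for PicoPure minus QIAGEN RNA and -0.02 for 20 minus 16 cycles. By transcript length, no order held against both unsheared libraries. Against the PicoPure library the median was 0.25 for transcripts of 1000 to 2000 bases and -0.15 for those of 8000 bases or more, and against the QIAGEN library it was 0.01 and 0.04.

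**Figure D5:**
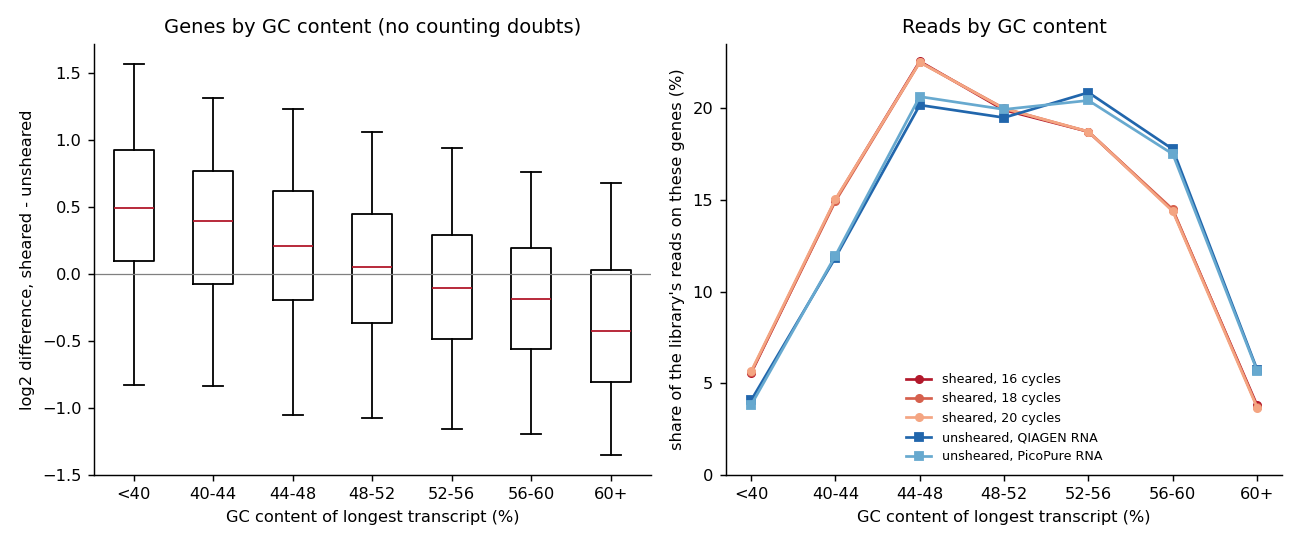
Left, log2 difference of sheared minus unsheared libraries by GC content of the longest transcript, with boxes for quartiles and whiskers for the 5th and 95th percentiles. Right, share of reads on these genes in each NuGEN library by GC content, where the sheared lines lie above the unsheared lines at low GC and below them at high GC.

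Among the genes without counting doubts, differences of a log2 of 2 or more included these. Kmt2b, a histone methyltransferase, had 330, 306 and 314 RPM in sheared libraries, against 80.7 and 72.5 RPM in unsheared libraries (log2 difference 2.04, SE 0.10, limma adjusted p = 4.61e-06). Fzd3, a Wnt receptor, had 120, 110 and 116 RPM in sheared and 22.4 and 30.7 RPM in unsheared libraries. Tenm1, a teneurin adhesion protein, had 131, 152 and 112 RPM in sheared and 14.7 and 40.2 RPM in unsheared libraries. Downward, Klf7, a neuronal transcription factor, had 13.0, 17.6 and 15.6 RPM in sheared and 104 and 124 RPM in unsheared libraries (log2 difference -2.85). Gabrb1, a GABA-A receptor subunit, had 144, 143 and 131 RPM in sheared and 570 and 765 RPM in unsheared libraries (log2 difference -2.24). Acsf3, an acyl-CoA synthetase, had 4.09, 7.64 and 7.17 RPM in sheared and 2595 and 2518 RPM in unsheared libraries, and 2478 and 2243 RPM in Clontech libraries. The Clontech libraries share gene models with the unsheared NuGEN libraries, and the part of the gene models at Acsf3 was not tested. Other effects of the gene models can remain among genes without counting doubts, because the set was picked by the doubts listed above only.

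At equal depth, fewer shared symbols were detected in sheared libraries. With 3909267 reads drawn from each library, 11560, 11635 and 11572 symbols had at least 5 reads in sheared libraries, against 12080 and 12130 in unsheared libraries, a mean difference of -516 (exact permutation test, two-sided, p = 0.1, the smallest 3 against 2 libraries allow). For symbols without counting doubts the counts were 7975, 8032 and 8003 in sheared and 8083 and 8175 in unsheared libraries.

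Ribosomal RNA and mitochondrial symbols could not be compared between tables, and no test is given for them. Rn45s, the precursor of ribosomal RNA, took 1.69, 1.86 and 2.06% of reads in sheared libraries and is not listed for unsheared libraries. Gm42418 and Gm26917, ribosomal RNA-like entries listed only in the unsheared table, took 4.60 and 4.19% of its reads together. Mitochondrial symbols took 5.07 and 3.77% of reads in unsheared libraries and are not listed for sheared libraries.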

How the data were processed

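The 3 sheared and 2 unsheared NuGEN libraries were compared. The authors trimmed reads, aligned them with STAR 2.4.1d to mm10, counted them per gene with featureCounts and deposited counts divided by DESeq2 size factors, a normalized signal, in a table for each cohort. The number of reads was recovered from these deposited values, 100% of which were whole within 0.01 read. Gene models of the tables differ, 20772 symbols occurred once in both, and none of them was a ribosomal or mitochondrial symbol. The planned tests of ribosomal and mitochondrial read shares are not reported, since each table lists symbols that the other lacks. Of these symbols 20248 matched the GENCODE annotation of GRCm38. Reads were rescaled jointly by median-of-ratios size factors over 11866 genes. Genes with a mean of the group means of at least 2 RPM were tested in limma 3.58.1 on log2(RPM + 0.5), with trend and Benjamini-Hochberg adjustment at 0.05, so fold changes of low genes are understated. edgeR 4.0.16 on the recovered reads called 2008 genes higher and 1919 lower, and DESeq2 1.42.0 was another alternative.

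Near-identical copies had at least 95% identity over 100 bases and 10% of the transcript (minimap2 2.31). Genes without counting doubts were matched in both annotations, had no copy, same-strand exon overlap or neighbour listed in the sheared table alone within 2000 bases, at least 1 exon count per read, and spans within 1.25 times. The deposited exon signal was used for that ratio only, which was taken from the unsheared NuGEN libraries. Intervals from counting were not used, and the floor was 3 reads.

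Named genes were the 12 largest log2 differences in each direction with an adjusted p under 0.05, separate groups and a mean of at least 20 RPM, with predicted genes not named, Rgs14, Elavl2, Amigo2, the pile-up loci and the 4 most abundant members of each list. Other genes were named after their values were seen. The members and lists were chosen with earlier results of these data known. Alternatives were scaling, pseudocount, filter, depth, cycles and leaving out each library.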

Additional observations from a re-analysis of the deposited data

How the results depend on the processing

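With PCR cycles in the fit 971 genes were higher and 966 lower in sheared libraries, and with the 20-cycle sheared library only 505 were higher and 609 lower, against 2093 and 1898. Leaving out 1 library at a time gave 1289 to 2792 higher and 1236 to 2438 lower genes. The cause was not tested. Genes without counting doubts, rescaled among themselves, gave 1276 higher and 1136 lower of 8101, where fewer genes were tested. Sheared minus unsheared libraries gave 1.87 percentage points of reads on ribosomal symbols, and -2.52 with ribosomal RNA-like symbols counted. Each value rests on symbols that 1 of the tables does not list, so neither is a difference in ribosomal share. In the alternatives run the log2 difference of Ttr ranged from -1.53 to 2.65. Col1a1 had a log2 difference of 0.17 that was not called, and of -1.59 without the unsheared QIAGEN library. Without the sheared library of 20 cycles it was 0.42, the highest among the fits without 1 library that tested Col1a1. No other named gene changed direction past the threshold in the alternatives run, and 17 of 140 named genes lost their call with cycles in the fit and 28 with the 20-cycle library only. Fits that leave a group with 1 library assume that it varies like the other group. No paired analysis was possible because the replicate numbers name libraries of different mice, cycles and RNA kits. The depth of the unsheared libraries limited low genes, since 3 reads were worth 0.0289 RPM over the sheared group and 0.376 RPM over the unsheared group.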
